A study of Mus musculus with 9 samples.

Results

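The 34 genes described here encode the core machinery of autophagy. They were taken by symbol from the deposited table of 23309 gene symbols, and all 34 are in it. They cover the ULK kinase complex (4 genes), the PI3K complex and its cofactors (6), ATG9, ATG2 and WIPI (5), the conjugation enzymes and their partners (6), the ATG4 proteases (4), the LC3 and GABARAP family (5), the cargo receptors (3) and the regulator Tfeb (1). Of the 34, 31 reached at least 1 FPKM (a fragment count divided by transcript length and library depth) in at least 3 of 9 libraries and were tested, with 9788 genes tested in all. Atg2b, Wipi1 and Atg16l1 were too low for the test.

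The 9 libraries were made from total RNA of isolated GFP-positive podocytes, the epithelial cells that form the slit diaphragm around glomerular capillaries. All mice were labelled wildtype and were 7 to 8 weeks old. All carried the membrane reporter mTmG, which turns green where Cre has acted, together with a podocyte-specific Cre, so green cells descend from cells in which that Cre was active. The groups were PBS (3 libraries), 9 days after ADR (ADR_D9, 3 libraries) and 14 days after ADR (ADR_D14, 3 libraries). The labels do not spell out ADR, which in podocyte injury models usually stands for Adriamycin (doxorubicin), a DNA-damaging drug. They also do not say whether libraries came from separate or pooled animals, so every p below measures only the spread between libraries.

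Autophagy encloses cytoplasm in a double membrane that fuses with lysosomes. The ULK complex starts the process, the PI3K complex makes the lipid that marks the site, ATG9 and ATG2 supply lipid, and a pair of ubiquitin-like conjugation systems attaches LC3 and GABARAP proteins to the growing membrane. Receptors tether cargo to those proteins. Podocytes are long-lived cells known for high basal autophagy, and mice lacking Atg5 in podocytes develop glomerular disease. Transcript levels do not measure autophagic flux.

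The podocyte markers examined were detected in each library. Wt1, a podocyte transcription factor, ranged from 26.7 to 87.5 FPKM in the PBS and day 9 libraries and from 12.3 to 39.0 at day 14. ADR_D9 replicate 3 and ADR_D14 replicate 1 stood apart. Of 10 endothelial markers, 10 lay above 4 times their highest PBS value, and at 1 FPKM or more, in each of them, as did 7 and 10 of 10 distal tubule, loop and duct markers and 4 and 9 of 10 proximal tubule markers, in that order. For leukocyte markers the counts were 6 and 6 of 10, and at most 2 markers of any list did so in the other 4 ADR libraries. Summed endothelial markers ran from 3.74 to 12.1 FPKM in PBS, from 7.39 to 3133 at day 9 and from 1.15 to 771 at day 14. Cdh5, Plvap, Tie1 and Flt1 are listed at 0 in ADR_D14 replicate 2. Summed distal markers ran from 10.6 to 53.7, from 35.9 to 592 and from 3.34 to 21355 FPKM in the same groups. Summed Y-linked transcripts were at 53.6 to 70.5 FPKM in all PBS libraries, ADR_D9 replicate 1 and ADR_D14 replicate 2, and at most 1.06 in the other 4. Relative depth, estimated from low values and set to 1 for PBS replicate 2, was 0.786 to 1.09 in PBS and at day 9 and 0.239 to 0.569 at day 14. In such bulk samples, fewer cells of a type and less RNA per cell cannot be told apart.

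In PBS, the members spanned more than 3 orders of magnitude. Sqstm1, the receptor p62, was highest at 667 ± 147 FPKM (mean ± SD, n = 3, as throughout), followed by Gabarap at 644 ± 48.4. Their libraries overlapped, so the order of these 2 was not resolved. Gabarapl1 followed at 287 ± 25.2, above the highest of the next group, which held Becn1 (167 ± 7.55), Map1lc3b (163 ± 40.2) and Gabarapl2 (151 ± 12.4). Optn stood at 97.7 ± 7.69 and Atg7, the E1-like enzyme of both conjugation systems, at 40.9 ± 3.32. Among further members, Atg13 was at 19.97 ± 3.87, Ulk1 at 5.47 ± 1.5 and Atg14 at 2.41 ± 0.137. At the bottom stood Map1lc3a (1.04 ± 0.321), Atg2b (0.825), Wipi1 (0.471) and Atg16l1 (0.190 ± 0.0449). Atg16l1 encodes the scaffold that places LC3 conjugation on the membrane.

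**Figure D1:**
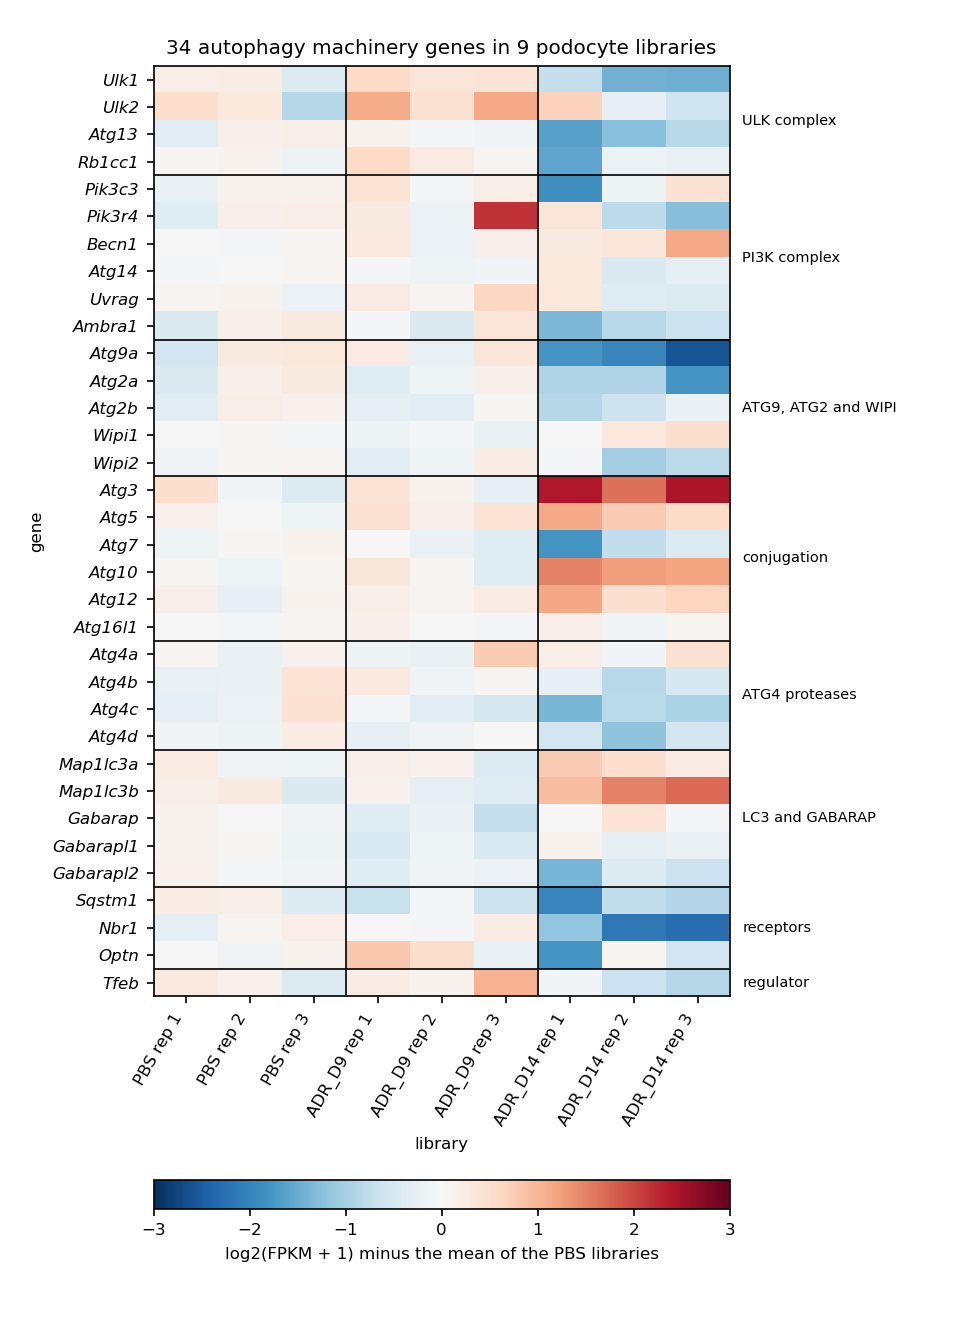
Each row is a member and each column a library. Colour is log2(FPKM + 1) minus the mean of the PBS libraries, and, apart from Pik3r4 in ADR_D9 replicate 3, the strongest colours are in the day 14 columns. They include red for Atg3, Atg10 and Map1lc3b and blue for Atg9a and Nbr1. Strong blue for Sqstm1, Pik3c3, Optn and Atg7 is in ADR_D14 replicate 1, a library with markers of other kidney cells.

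The first comparison asked how the machinery stood 9 days after ADR. None of the 31 tested members passed limma (adjusted p under 0.05, Benjamini-Hochberg over 9788 genes), and none of the 9788 genes did (0%). At an unadjusted p under 0.05 there were 0 members and 304 genes (3.11%). The median log2 change of the members was 0.03 relative to the median gene, with 16 above it and 15 below. Throughout, a log2 change is a difference of log2(FPKM + 1), so that low genes appear to change less than they do, and the median change over all tested genes has been subtracted. The amount subtracted was 0.04 for the first comparison, −0.15 for day 14 against PBS and −0.22 for day 14 against day 9.

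At day 9, 3 members had no overlap with PBS (9.68% of those tested), against 13.4% of all genes, of which 6.77% were higher and 6.63% lower. Ulk1, the kinase that starts autophagosome formation, was at 6.30, 6.39 and 3.74 FPKM in PBS and at 8.60, 7.12 and 7.50 at day 9, a log2 change of 0.42 ± 0.30 (SE). All day 9 libraries lay above all PBS libraries. Atg5, whose product joins ATG12 in the complex that helps attach LC3 to lipid, had a log2 change of 0.31 with the same separation upwards. Gabarap was separate in the other direction, at a log2 change of −0.46. The 5 LC3 and GABARAP genes had a median log2 change of −0.24, and none passed. All 5 lay below the median gene, but Map1lc3a was at 0.14 without both libraries with markers of other kidney cells, and Map1lc3a and Map1lc3b were at 0.05 and 0.02 with a term for Y-linked transcripts. Pik3r4, the regulatory subunit VPS15 of the PI3K complex, was at 32.8 FPKM in ADR_D9 replicate 3 and at 8.19 and 5.70 in the other day 9 libraries. Its log2 change of 0.72 ± 0.63 (SE) was 0.03 without that library, which is one of those with markers of other kidney cells.

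The second comparison, 14 days after ADR against PBS, gave changes in both directions. Of the 31 tested members, 10 passed limma (32.3%), against 17.1% of all genes tested. Of these, Atg3, Atg10, Map1lc3b and Atg5 rose (6.32% of all genes rose), and Ulk1, Atg13, Atg9a, Atg2a, Atg4c and Nbr1 fell (10.7% of all genes fell). With every library scaled to a common total, 3 members passed higher and 11 lower. In either direction 2093 of all 9788 genes passed, and their split by direction is not given here. Total FPKM was 573214 to 630662 in PBS and 699412 to 723288 at day 14. This scaling therefore lowers the day 14 values of every gene relative to PBS. The members' median log2 change was −0.38, with 12 above the median gene and 19 below. At an unadjusted p under 0.05 there were 16 members, against 34.2% of all genes. Groups did not overlap for 19 members, against 39.4% of all genes, with 6 of them higher (15.6% of all genes) and 13 lower (23.8%).

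Of the ULK complex, 2 of 4 genes fell. Ulk1 was at 2.88, 1.33 and 1.29 FPKM at day 14, all below the lowest PBS library, with a log2 change of −1.06 ± 0.30 (SE, limma adjusted p = 0.0301). Atg13, which links ULK1 to its scaffold, was at 15.5, 21.9 and 22.5 FPKM in PBS, at 21.2, 19.02 and 18.6 at day 9 and at 5.70, 7.74 and 10.7 at day 14. The day 14 libraries lay below all others, and the mean was 2.48-fold lower, at a log2 change of −1.08 ± 0.27 (SE, limma adjusted p = 0.0211). Rb1cc1, the scaffold FIP200, was at 21.9 ± 2.09 FPKM in PBS and at 6.57, 19.3 and 18.5 at day 14 and did not pass (limma adjusted p = 0.249). Its low value was in ADR_D14 replicate 1. Ulk2, the paralogue of Ulk1, was at 2.56 ± 1.52 FPKM in PBS and 2.43 ± 1.66 at day 14, with a log2 change of 0.10, and its groups overlapped.

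None of the 6 genes of the PI3K complex passed. Becn1, the beclin 1 subunit, was at 167, 159 and 174 FPKM in PBS and at 200.4, 211 and 365 at day 14. All day 14 libraries were above all PBS libraries, but the log2 change of 0.72 ± 0.27 (SE) did not pass (limma adjusted p = 0.165). Ambra1, a cofactor that brings beclin 1 under ULK1 control, was at 2.71, 4.57 and 4.98 FPKM in PBS, at 3.77, 2.71 and 5.41 at day 9 and at 0.968, 1.79 and 2.17 at day 14. Its PBS and day 14 libraries were also separate, at a log2 change of −0.80 ± 0.32 (SE, limma adjusted p = 0.0747), the smallest p of the group. Pik3c3, the lipid kinase itself, was at 17.6 to 22.3 FPKM in PBS and at 5.02, 18.3 and 28.01 at day 14, so its day 14 libraries lay on both sides of the PBS range. Atg14, the subunit of the complex that works at autophagosome initiation, was at 2.41 ± 0.137 FPKM in PBS and 2.19 ± 0.941 at day 14. Uvrag, its counterpart in endosomal complexes, was at 13.4 ± 1.43 and 12.3 ± 4.07 FPKM, and Pik3r4 at 6.69 ± 1.52 and 4.77 ± 3.54 FPKM. These 3 overlapped between the groups, with log2 changes of 0.01, −0.01 and −0.42.

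Of the ATG9, ATG2 and WIPI genes, 2 of 3 tested fell. Atg9a, the membrane-spanning scramblase carried on seed vesicles, was at 14.2, 26.0 and 26.8 FPKM in PBS, at 25.9, 18.4 and 27.9 at day 9 and at 5.56, 4.67 and 2.73 at day 14. The day 14 libraries were below all others, and the mean was 5.17-fold lower than in PBS (log2 change −1.97 ± 0.34 SE, limma adjusted p = 0.0106). Atg2a, the lipid transfer protein that works with ATG9A, was at 2.22, 3.82 and 4.19 FPKM in PBS, at 2.33, 2.97 and 3.76 at day 9 and at 1.30, 1.32 and 0.269 at day 14. The day 14 libraries were again the lowest, at a log2 change of −1.04 ± 0.32 (SE, limma adjusted p = 0.0378). Wipi2, a reader of the PI3K lipid that recruits ATG16L1, was at 8.74 ± 0.576 FPKM in PBS and 5.62 ± 2.58 at day 14 and did not pass. Of the untested genes, Atg2b was at 0.425, 1.08 and 0.971 FPKM in PBS and at 0, 0.167 and 0.571 at day 14, and Wipi1 at 0.419 to 0.518 and 0.451 to 1.06. Both overlapped between the groups.

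The conjugation genes held the highest rise among the members. Atg3, the E2-like enzyme that transfers LC3 to lipid, was at 19.3, 12.7 and 9.76 FPKM in PBS, at 18.3, 14.4 and 10.7 at day 9 and at 75.6, 44.1 and 77.9 at day 14. The PBS and day 9 libraries overlapped, and all day 14 libraries lay above them. The day 14 mean was 4.74-fold that of PBS (log2 change 2.32 ± 0.34 SE, limma adjusted p = 0.0105). Atg10, the E2-like enzyme of the ATG12 to ATG5 linkage, was at 2.69, 2.29 and 2.78 FPKM in PBS, at 3.50, 2.65 and 1.79 at day 9 and at 9.11, 7.48 and 7.14 at day 14. All day 14 libraries lay above the others, with a 3.06-fold higher mean (log2 change 1.45 ± 0.25 SE, limma adjusted p = 0.0155). Atg5 was at 10.6, 9.74 and 8.71 FPKM in PBS, at 13.7, 10.8 and 13.2 at day 9 and at 22.3, 17.0 and 14.7 at day 14. No library of one group overlapped another group, and against PBS the day 14 group had a log2 change of 0.96 ± 0.23 (SE, limma adjusted p = 0.0459).

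Atg12, the ubiquitin-like partner of ATG5, was at 1.61 ± 0.384 FPKM in PBS and 3.47 ± 1.15 at day 14, separate between the groups but short of the threshold (limma adjusted p = 0.0689). Atg7 lay in the other direction, at 37.3, 41.6 and 43.8 FPKM in PBS and 11.0, 23.9 and 30.2 at day 14. All its day 14 libraries lay below PBS, at a log2 change of −0.84 ± 0.34 (SE) that did not pass (limma adjusted p = 0.0768). Counting genes that passed, the conjugation group had 3 of 5 higher and 0 lower. The ratio of Atg3 to Atg7 FPKM within a library was 0.518, 0.304 and 0.223 in PBS and 6.85, 1.84 and 2.58 at day 14. This ratio was chosen after the values were seen and was not tested. Its highest value, 6.85, was in ADR_D14 replicate 1, a library with markers of other kidney cells, where Atg7 was at 11.0 FPKM. Atg16l1 stayed between 0.132 and 0.355 FPKM in all 9 libraries.

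Tfeb, the transcription factor that drives many autophagy and lysosome genes through E-box sites, was at 14.8, 13.2 and 8.86 FPKM in PBS, at 14.3, 13.0 and 25.7 at day 9 and at 11.3, 7.27 and 6.21 at day 14. Its groups overlapped between PBS and day 14, and it did not pass (limma adjusted p = 0.310). Promoter sequences were read for the E-box core CACGTG, which is its own reverse complement. The window was the 250 bases before each annotated start in RefSeq (GRCm38.p6, a later build than the mm9 of the deposited values). Of the 34 members, 28 matched a promoter entry. The core was found in 3 of them (10.7%), against 6.86% of 27025 genes. The longer CLEAR element, the same core with GT before it and AC after it and also its own reverse complement, was in 0 of the 28 and in 0.27% of all genes. The 3 are Atg3, Atg5 and Atg7, all of the conjugation group. They are shown because Atg3 and Atg5 rose at day 14 while the FPKM of Atg7 lay lower. Map1lc3b and Atg10, which also rose, held no core in this window. Capitals mark the core, and each sequence runs 5′ to 3′ up to the base before the start, at chr16:45158579-45158828, chr10:44268089-44268338 and chr6:114670846-114671095, all on the plus strand.
Atg3: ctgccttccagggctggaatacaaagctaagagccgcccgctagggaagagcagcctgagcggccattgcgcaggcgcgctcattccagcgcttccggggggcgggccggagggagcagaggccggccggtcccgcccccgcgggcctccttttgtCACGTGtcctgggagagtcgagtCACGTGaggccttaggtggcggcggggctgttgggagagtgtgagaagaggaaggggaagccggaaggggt
Atg5: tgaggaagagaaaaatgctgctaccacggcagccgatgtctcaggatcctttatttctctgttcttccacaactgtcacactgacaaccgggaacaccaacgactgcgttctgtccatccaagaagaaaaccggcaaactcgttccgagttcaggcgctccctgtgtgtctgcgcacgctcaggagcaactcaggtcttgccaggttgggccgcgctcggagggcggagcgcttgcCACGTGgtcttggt
Atg7: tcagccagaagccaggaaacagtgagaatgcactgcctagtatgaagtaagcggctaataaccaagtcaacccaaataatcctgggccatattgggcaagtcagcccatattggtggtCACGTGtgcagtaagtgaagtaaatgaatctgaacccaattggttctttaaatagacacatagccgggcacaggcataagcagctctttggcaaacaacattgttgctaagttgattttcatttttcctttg
In Atg3 the cores begin 94 and 71 bases before the start, in Atg5 14 bases and in Atg7 132 bases before it. A match describes letters in this window, not binding.

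Among the ATG4 proteases, which trim LC3 and GABARAP precursors and remove them from lipid, 1 of 4 fell. Atg4c was at 1.49, 1.69 and 3.11 FPKM in PBS, at 1.95, 1.42 and 1.15 at day 9 and at 0.168, 0.728 and 0.576 at day 14. The PBS and day 9 libraries overlapped and the day 14 libraries lay below both, at a log2 change of −0.89 ± 0.27 (SE, limma adjusted p = 0.0333) on low values. Atg4d, the most abundant of the 4, was at 22.0 ± 3.33 FPKM in PBS and 12.7 ± 3.29 at day 14, also separate but short of the threshold (limma adjusted p = 0.0665). Atg4b, the main protease for LC3 processing in mammals, was at 4.27 ± 1.36 FPKM in PBS and 2.65 ± 0.703 at day 14, and Atg4a at 2.11 ± 0.366 and 2.57 ± 0.689 FPKM. Their log2 changes were −0.37 and 0.33, and neither passed.

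In the LC3 and GABARAP family, 1 of 5 genes rose. Map1lc3b, which encodes the LC3B protein used as the standard marker of autophagosomes, was at 180, 191 and 116 FPKM in PBS, at 174, 132 and 124 at day 9 and at 305, 451 and 518 at day 14. All day 14 libraries were above all others, and the mean was 2.61-fold that of PBS (log2 change 1.52 ± 0.29 SE, limma adjusted p = 0.0197). Gabarapl2 (GATE-16) lay in the other direction, at 165, 148 and 140 FPKM in PBS, 117, 143 and 133 at day 9 and 57.0, 115 and 96.0 at day 14. Its PBS and day 14 libraries did not overlap, but the log2 change of −0.66 ± 0.27 (SE) did not pass (limma adjusted p = 0.0716).

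Gabarap, the most abundant of the family, was at 696, 637 and 599.8 FPKM in PBS, 499, 556 and 394 at day 9 and 638, 852 and 621 at day 14. Gabarapl1 was at 307, 296 and 259 FPKM, then 209, 261 and 209.96, then 307, 236 and 244. Both overlapped between PBS and day 14, with log2 changes of 0.26 and 0.01. Map1lc3a, which encodes LC3A, was at 1.41, 0.869 and 0.842 FPKM in PBS, 1.30, 1.20 and 0.527 at day 9 and 2.41, 1.89 and 1.40 at day 14. Its highest PBS library (1.41) lay just above its lowest day 14 library (1.40), and it did not pass (limma adjusted p = 0.186).

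As a share of the 5 genes' summed FPKM, Map1lc3b made up 13.4%, 15.0% and 10.4% in PBS, 17.4%, 12.1% and 14.4% at day 9 and 23.3%, 27.2% and 35.0% at day 14. Gabarapl2 made up 12.1 ± 0.466% in PBS and 5.93 ± 1.38% at day 14, while Gabarap made up 51.8 ± 1.85% and 47.4 ± 4.89%. The share of Map1lc3b was higher, and that of Gabarapl2 lower, in each day 14 library than in each of the 6 other libraries. FPKM shares within a library do not depend on its scaling, and these shares were chosen after the values were seen and were not tested.

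**Figure D2:**
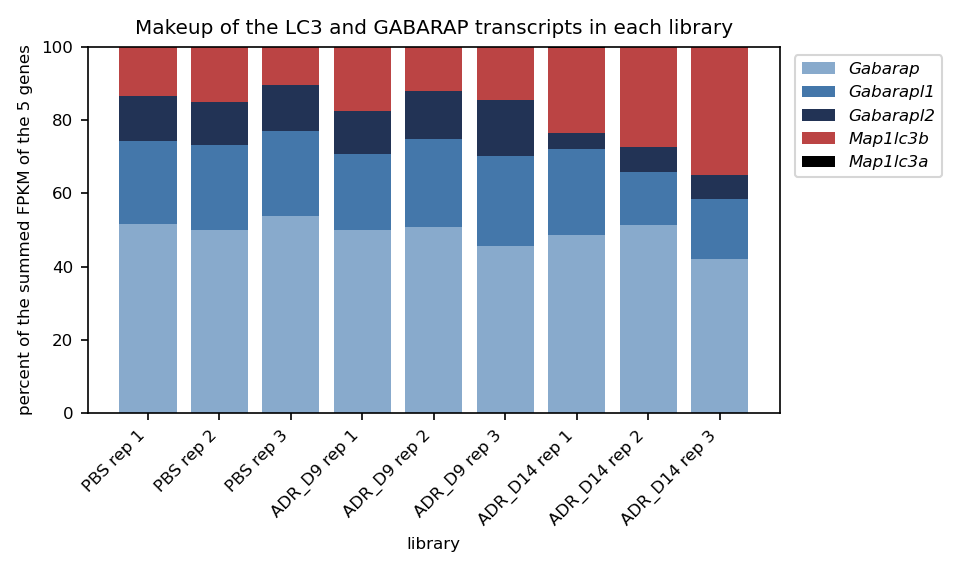
Stacked bars give each gene's percentage of the summed FPKM of the 5 LC3 and GABARAP genes, 1 bar per library. The Map1lc3b part spans 10.4% to 17.4% in the PBS and day 9 libraries and 23.3% to 35.0% at day 14, and Map1lc3a is too small to be seen.

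Of the cargo receptors, 1 of 3 fell. Nbr1, a receptor for ubiquitin-tagged cargo, was at 18.7, 24.0 and 26.2 FPKM in PBS, 23.1, 21.8 and 26.8 at day 9 and 9.62, 4.35 and 3.85 at day 14. The day 14 libraries were below all others, with a mean 3.86-fold lower than in PBS (log2 change −1.72 ± 0.32 SE, limma adjusted p = 0.0118). Sqstm1, the related receptor whose protein is itself degraded by autophagy, was at 759, 744 and 498 FPKM in PBS, 415, 626 and 421 at day 9 and 167, 389.8 and 355 at day 14. Its day 14 libraries lay below all PBS and day 9 libraries, but it did not pass against PBS (log2 change −1.05 ± 0.37 SE, limma adjusted p = 0.0555). Optn, the receptor optineurin, was at 97.9, 89.97 and 105 FPKM in PBS, 170.5, 142 and 84.2 at day 9 and 27.3, 104 and 65.5 at day 14. Its groups overlapped, with the lowest value in ADR_D14 replicate 1.

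**Figure D3:**
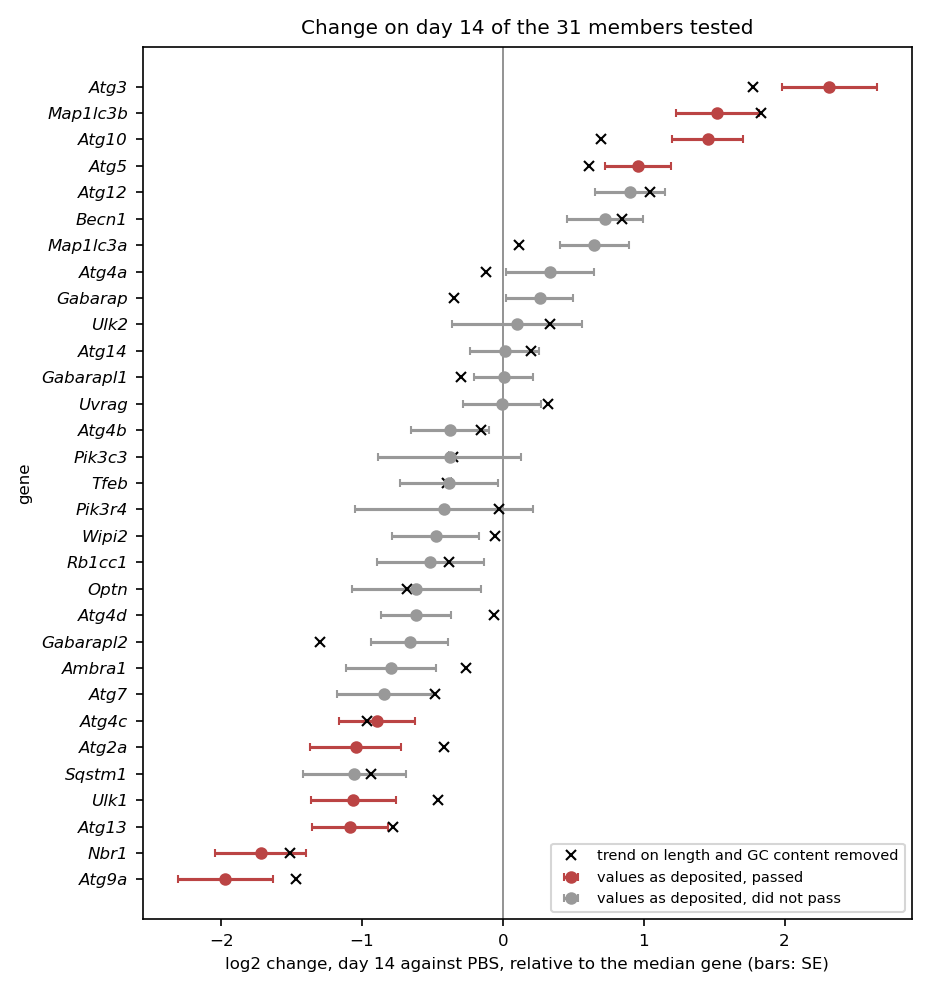
Points give each tested member's log2 change at day 14 against PBS relative to the median gene, with SE bars and red for the 10 that passed limma. Crosses give the same change after removal of each library's trend on transcript length and GC content, and for Atg10, Ulk1 and Atg2a they lie nearer 0 than the point.

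These calls depended on single libraries and on the model. Without PBS replicate 2, 0 members and 0 genes passed limma (2349 genes at an unadjusted p under 0.05). Without PBS replicate 3 there was 1 member (Atg3) among 150 genes, and without ADR_D9 replicate 2 there were 6 members among 1081 genes. Atg5 passed in 1, Ulk1 in 2 and Atg2a in 3 of the 9 fits with a library left out. In the fits without a day 9 library the log2 change stayed as it was and only the estimated spread moved. Without both libraries that hold markers of other kidney cells, Atg5 (log2 change 0.82, limma adjusted p = 0.0659) and Atg4c (−0.70, 0.055) no longer passed, while Pik3r4 (−0.86) and Wipi2 (−0.75) did. The others that passed were at 2.22 for Atg3, 1.77 for Map1lc3b, 1.38 for Atg10, −2.12 for Atg9a, −2.05 for Nbr1, −1.29 for Ulk1, −1.16 for Atg2a and −0.86 for Atg13. Among members that did not pass in either fit, Sqstm1 was at −0.65, Atg7 at −0.42, Gabarapl2 at −0.35 and Optn at −0.07 without both libraries. With a term for Y-linked transcripts, present in 3 of 3 PBS and 1 of 3 day 14 libraries, none of the 9788 genes passed limma (2411 did at an unadjusted p under 0.05), and the change was 2.27 for Atg3, 1.77 for Map1lc3b, 1.63 for Atg10, −1.81 for Atg9a and −1.84 for Nbr1.

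Transcript length moved with the day 14 change. Across 9731 genes with an annotated length, Spearman's correlation between length and log2 change was −0.33, and across the 31 members it was −0.38, given as a description because genes are not independent and all share the same libraries. The median length of the longest annotated transcript was 2216.5 bases for the 4 members that rose and 4503.5 bases for the 6 that fell, against 3178 for all genes. Atg3 (2081 bases) and Atg10 (1583) are short, and Atg9a (4218), Nbr1 (4789), Ulk1 (5213) and Atg2a (6371) are long. Map1lc3b, at 4138 bases, rose although longer than the median gene. After removal of each library's trend on length and GC content, Atg3 (log2 change 1.78, limma adjusted p = 0.029), Map1lc3b (1.84, 0.0282), Atg9a (−1.47, 0.0321) and Nbr1 (−1.51, 0.0315) still passed. Atg12 (1.04, limma adjusted p = 0.0469) and Gabarapl2 (−1.30, 0.0463) now passed, and Atg10 (0.70), Atg5 (0.61), Atg13 (−0.78), Ulk1 (−0.46), Atg2a (−0.42) and Atg4c (−0.97) did not. The part of depth and fragment length in this relation was not tested.

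**Figure D4:**
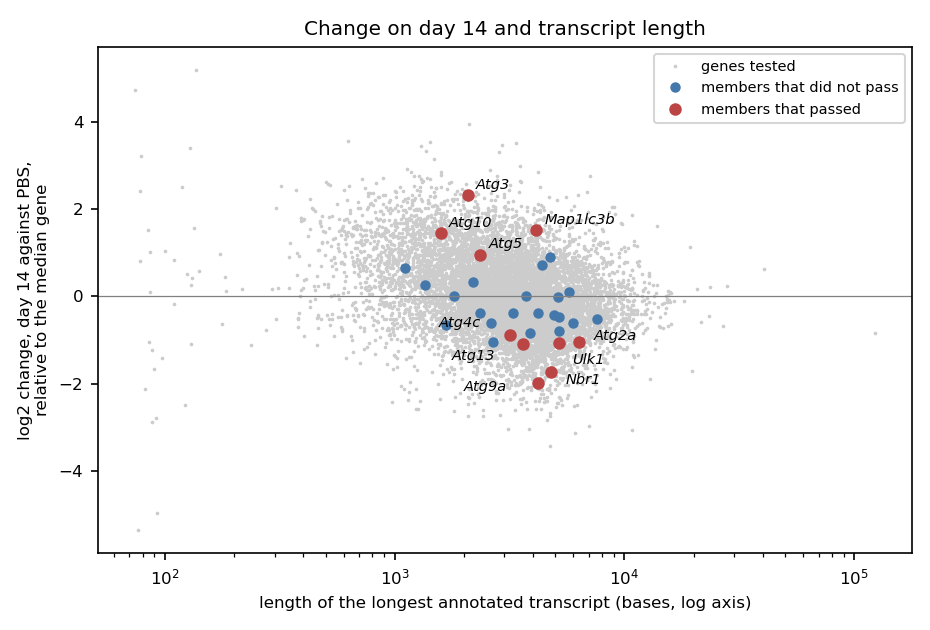
Each point is a gene, with the length of its longest annotated transcript in bases on a log axis and its log2 change at day 14 against PBS relative to the median gene. Members that passed are red and named, with Atg3 and Atg10 to the left of most members that fell and Map1lc3b at 4138 bases.

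The third comparison set day 14 beside day 9. Of the 31 members, 7 passed limma (22.6%), against 15.7% of all genes. Atg3, Atg10 and Map1lc3b rose (5.71% of all genes rose), and Ulk1, Atg13, Atg9a and Nbr1 fell (9.98% of all genes fell). With every library scaled to a common total, 3 members passed higher and 10 lower. In either direction 2225 of all 9788 genes passed, and their split by direction is not given here. Total FPKM was 572787 to 610551 at day 9 and 699412 to 723288 at day 14, so this scaling lowers every gene at day 14 relative to day 9. Each of the 7 also passed against PBS in the same direction, but both comparisons share the day 14 libraries. Groups did not overlap for 21 members, against 37.7% of all genes, with 7 higher (13.2% of all genes) and 14 lower (24.6%). The members' median log2 change was −0.43.

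The change from day 9 to day 14 was −2.04 ± 0.34 for Atg9a (SE, limma adjusted p = 0.00999), 2.31 ± 0.34 for Atg3 (0.0112) and −1.71 ± 0.32 for Nbr1 (0.0114). These 3 passed in all 9 fits with a library left out. The fits without a PBS library leave these log2 changes as they were and alter only the estimated spread. Ulk1 was at a log2 change of −1.45 ± 0.30 (SE, limma adjusted p = 0.014), with its day 9 libraries above and its day 14 libraries below all PBS libraries. Map1lc3b was at 1.76 ± 0.29 (SE, limma adjusted p = 0.0148). Atg10 was at 1.53 ± 0.25 and Atg13 at −1.01 ± 0.27 (SE, limma adjusted p = 0.0155 and 0.022). After detrending on length and GC content, Ulk1, Atg10 and Atg13 did not pass (limma adjusted p = 0.128, 0.152 and 0.191). Without ADR_D9 replicate 3, 4 members passed, among 381 genes. Without both libraries with markers of other kidney cells all 7 did, among 1287 genes. Their log2 changes were then 1.98 for Atg3, 1.85 for Map1lc3b, 1.22 for Atg10, −1.75 for Ulk1, −0.87 for Atg13, −2.12 for Atg9a and −2.02 for Nbr1. All 7 also passed with the term for Y-linked transcripts. In this comparison the term could not move the log2 changes, because as many day 9 as day 14 libraries held such transcripts.

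**Figure D5:**
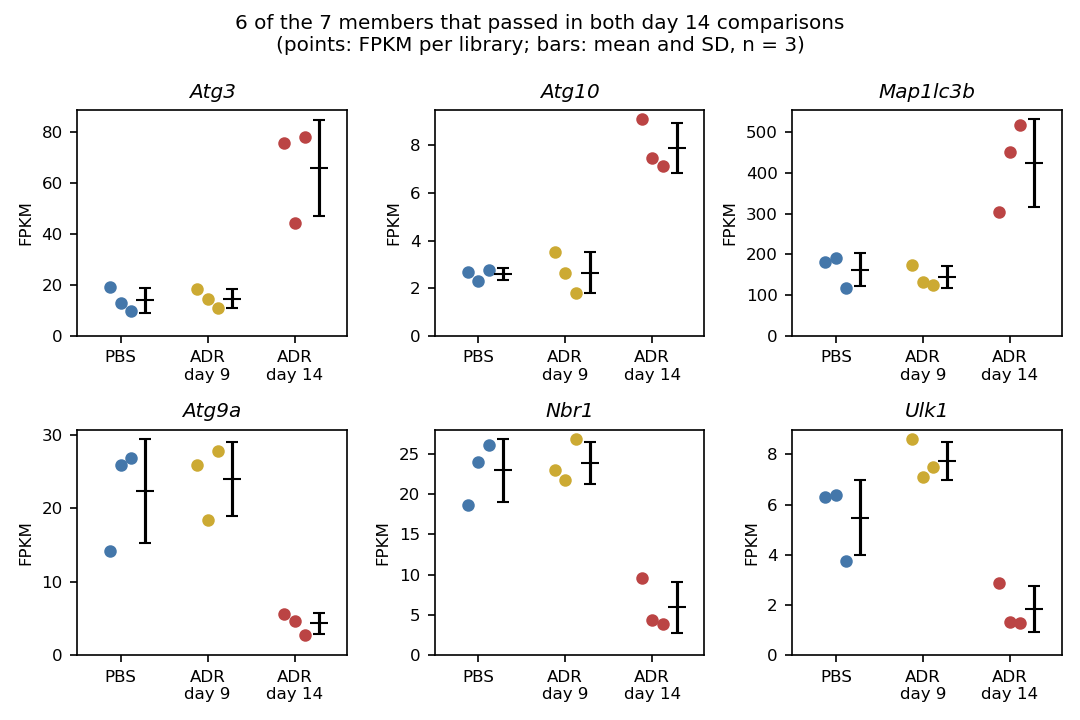
Points are FPKM per library and bars mean and SD (n = 3) for 6 of the 7 members that passed in both day 14 comparisons. Day 14 libraries lie above all others for Atg3, Atg10 and Map1lc3b and below all others for Atg9a, Nbr1 and Ulk1.

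Of 37 other autophagy genes in the table, 31 were tested. At day 9, 0 passed limma. At day 14 against PBS, 9 passed (29.0%, against 17.1% of all genes), 3 higher and 6 lower (against 6.32% and 10.7%). The 6 with the smallest p had limma adjusted p from 0.0116 to 0.0173. Tecpr1, a tether between autophagosomes and lysosomes, fell from 28.7 ± 7.80 to 6.26 ± 3.25 FPKM (log2 change −1.95), and Rubcn, an inhibitor of the PI3K complex listed under the symbol 1700021K19Rik, fell from 12.01 ± 4.75 to 2.55 ± 0.391 FPKM (−1.66). Ykt6, a SNARE of autophagosome fusion, fell from 84.3 ± 13.7 to 30.3 ± 5.38 FPKM (−1.30), as did Tfe3, a relative of Tfeb, from 11.4 ± 0.435 to 4.23 ± 0.990 FPKM (−1.11), and Tollip, a ubiquitin-binding receptor, from 136 ± 5.76 to 64.0 ± 12.5 FPKM (−0.95). Bnip3l, the mitophagy receptor NIX, rose from 21.3 ± 2.74 to 46.0 ± 5.70 FPKM (1.23). After detrending on length and GC content, Tecpr1, Ykt6 and Bnip3l still passed, and Rubcn, Tfe3 and Tollip did not (limma adjusted p = 0.055, 0.106 and 0.0894). From day 9 to day 14, 9 passed (29.0%, against 15.7% of all genes), 2 higher and 7 lower (against 5.71% and 9.98%), with Tecpr1 at −2.23, Rubcn at −1.27, Tfe3 at −0.79, Tollip at −0.70, Bnip3l at 1.13 and Tmem41b, an ER scramblase needed for autophagosome formation, at 1.19. In this comparison the detrending ended the calls of Rubcn, Tfe3, Tollip and Bnip3l (limma adjusted p = 0.185, 0.456, 0.237 and 0.053). Tollip and Bnip3l each lost the call in 11 of 23 alternatives, and Tmem41b and Tfe3 each in 8. Tmem41b did not pass without both libraries with markers of other kidney cells (limma adjusted p = 0.0646), nor in any fit without a day 9 library.

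Some members share exons or sequence with other genes, and the use of strand in the authors' counting is not given in the sources used here. By GENCODE M21 exons, genes on the other strand overlap 43.9% of Becn1 (Cntd1), 28.3% of Gabarapl1, 19.3% of Atg4d (Kri1), 17.6% of Uvrag and 17.3% of Sqstm1, and a same-strand gene overlaps 31.8% of Atg9a. Pseudogenes, by annotation or by name, with at least 90% identity over at least 300 bases were found for Atg4a, Atg4b, Gabarapl2, Rb1cc1 and Uvrag, whose values are uncertain to that extent. None of the 10 members that passed at day 14 against PBS had such a copy.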

How the data were processed

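Total RNA of GFP-positive podocytes was depleted of ribosomal RNA with a Ribo-Zero kit and sequenced, per the labels' protocols. The authors deposited 1 table of FPKM values, 1 column for each library. Bowtie 0.12.7, Cufflinks and build mm9 are listed in the submitters' processing notes, without roles. Read counts were not used here, so no counting intervals are given. Columns headed control were taken as the PBS libraries by replicate number. Of rows sharing a symbol, the one with the highest mean was kept.

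Genes that reached 1 FPKM in 3 or more of the 9 libraries were tested with limma 3.58.1 (R 4.3.3, variance trend, log2(FPKM + 1), all 9 libraries, group as the only term, two-sided), and p-values were adjusted by Benjamini-Hochberg over all tested genes of a comparison (threshold 0.05). The values were tested as deposited, and the printed changes are relative to the median gene. Transcript lengths came from GENCODE M21 and were matched for 99.4% of tested genes.

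The members, lists and tests were chosen with earlier results of these data known. All members may be named. Values in every library are given for members that passed, the LC3 and GABARAP family, the receptors and the member with the smallest p of each role. Of the other autophagy genes, up to 6 with the smallest p per comparison are named. Alternatives were a pseudocount of 0.1, no filter or a stricter one, 3 other scalings, no variance trend, summed rows, only the groups compared, a replicate block, a term for Y-linked transcripts, removal of a length and GC trend, and libraries left out. Removal of a trend on length alone was added after seeing the data.

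Endothelial, proximal and distal tubule, leukocyte, mesangial, parietal and red cell markers were read per library. In ADR_D9 replicate 3 and ADR_D14 replicate 1, 5 and 2 of 10 mesangial, 3 and 4 of 6 parietal and 4 and 3 of 6 red cell markers exceeded 4 times the highest PBS library. Of the podocyte markers, values of Wt1 alone are reported here.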

Additional observations from a re-analysis of the deposited data

Results flagged for a closer look

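The difference between day 14 and day 9, which is the test of whether the changes against PBS differ between the times, passed limma for 7 members. The log2 differences, as day 14 minus day 9 and relative to the median gene, were −1.45 for Ulk1, −1.01 for Atg13, −2.04 for Atg9a, 2.31 for Atg3, 1.53 for Atg10, 1.76 for Map1lc3b and −1.71 for Nbr1. In each case all 3 day 14 libraries lay on one side of all 3 day 9 libraries. The group that differs is also the one with the lowest relative depth (0.239 to 0.569), and the part of depth in these differences was not tested. Groups of 3 libraries were not tested for single libraries that lie apart.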

How the results depend on the processing

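At day 9 against PBS, 0 members passed limma under all alternatives run. At day 14 against PBS, 10 members passed, among 1670 genes in all. With no filter on low values, which tests all 34 members and more than 9788 genes, 6 members and 997 genes passed. With only the groups compared in the fit 4 and 470 passed. The term for Y-linked transcripts gave 0 members and 0 genes, and detrending on length and GC content gave 6 and 583. Detrended fits tested the 9731 genes with an annotated length. Leaving out 1 library gave 0 to 10 members and 0 to 1885 genes. At day 14 against day 9, 7 members passed, among 1536 genes. Scaling every library to a common total gave 13 members and 2225 genes, only the groups compared 2 and 262, and the same detrending 4 and 438. Leaving out 1 library there gave 4 to 10 members and 381 to 2124 genes. The causes were not tested. Removal of a trend on length alone was added after seeing the data. It gave 7 members and 1079 genes at day 14 against PBS and 5 members and 847 genes at day 14 against day 9. For the 17 calls of single members in the day 14 comparisons, 389 values were computed under the alternatives, 296 of which kept the call and 93 the direction only, and none reversed. Some alternatives could not reverse a direction, because they leave a member's log2 change as it was or nearly so. These are no variance trend, only the groups compared, the replicate block, summed rows and leaving out a library of the third group. At day 14 against day 9 the term for Y-linked transcripts is another. Same-numbered libraries did not deviate together in every pair of groups (correlations from −0.27 to 0.43), so the numbers were not taken to pair the libraries. With the replicate number as a block, 0 members and 0 genes passed at day 9 against PBS. At day 14 the block gave 7 members and 1301 genes against PBS, and 7 members and 1200 genes against day 9. The part of the lower depth at day 14 in the calls was not tested, and the labels do not say which libraries share an animal.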

Other observations

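The ratio of Map1lc3b to Gabarapl2 FPKM, members of the same ubiquitin-like family, was 1.10, 1.29 and 0.829 in PBS, 1.49, 0.922 and 0.929 at day 9 and 5.35, 3.93 and 5.39 at day 14. The ratio of Atg9a to Atg3 was 1.85 ± 1.02 in PBS, 1.76 ± 0.732 at day 9 and 0.0715 ± 0.0355 at day 14 (SD, n = 3). Both were chosen after the values were seen and have no test. The summed FPKM of the 34 members was 2445 ± 242 in PBS, 2080 ± 195 at day 9 and 2336 ± 345 at day 14, and the groups overlapped. As a percent of each library's total FPKM the sum was 0.380 to 0.432 in PBS, 0.329 to 0.372 at day 9 and 0.269 to 0.366 at day 14. Every ADR library thus lay below every PBS library, which was not tested. A few abundant genes weigh most in the sum. Mean FPKM in PBS, at day 9 and at day 14 was 667, 488 and 304 for Sqstm1 and 644, 483 and 703 for Gabarap.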
